A study of Homo sapiens with 6 samples.

Results

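The CCN and YAP pathway genes described here are 10 of the 25680 gene symbols counted in the 6 libraries. They are the secreted CCN proteins WISP1 (CCN4), CTGF (CCN2), CYR61 (CCN1), NOV (CCN3) and WISP2 (CCN5), the YAP target gene ANKRD1, the Hippo pathway proteins AMOTL2 and WWC1, and the co-activators YAP1 and WWTR1 (TAZ). The genes were chosen by name, with their read counts in high against low uptake already known. Their own differences are therefore given as a description with no p-value, and nothing is read from whether they passed a threshold. U87 is an established human glioblastoma line, labelled wild type. All cells had been given the cyclic peptide EPP6 carrying the dye rhodamine, at 500 nM for 1 h, and were detached and sorted on the dye. RNA came from the brightest 30% of cells (high uptake, 3 libraries numbered 2, 3 and 4) and from the dimmest 30% (low uptake, 3 libraries with the same numbers), and no untreated cells are included here. Nothing in the labels says that the libraries of a group came from separate cultures, so tests measure only the spread between these libraries, which may be technical.

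CCN proteins are small, cysteine-rich proteins of the extracellular matrix that bind integrins and proteoglycans. CTGF and CYR61 are the best-known genes switched on by YAP and TAZ. These co-activators enter the nucleus on stiff substrates and in spread cells and act there through TEAD factors, which bind DNA. The Hippo kinases LATS1 and LATS2, assisted by scaffolds such as WWC1 (KIBRA), keep YAP and TAZ in the cytoplasm. WISP1 was named for its induction by WNT1, and AMOTL2 both binds YAP and is a target of it.

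The promoters of CTGF, ANKRD1 and AMOTL2 are shown because they are the known YAP targets among the 10 genes for which a window was found. RefSeq sequences (build GRCh38.p14) of 250 bases before to 50 after an annotated start were found for 6 of the 10 genes, and capitals mark each match to the TEAD core CATTCC on either strand.
CTGF (chr6:131951323-131951622, minus strand): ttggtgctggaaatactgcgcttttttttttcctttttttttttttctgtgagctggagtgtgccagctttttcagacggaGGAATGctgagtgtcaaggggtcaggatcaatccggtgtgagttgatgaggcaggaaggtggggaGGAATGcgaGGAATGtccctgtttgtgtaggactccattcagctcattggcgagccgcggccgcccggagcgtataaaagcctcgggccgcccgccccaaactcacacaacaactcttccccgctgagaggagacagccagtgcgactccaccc
ANKRD1 (chr10:90921038-90921337, minus strand): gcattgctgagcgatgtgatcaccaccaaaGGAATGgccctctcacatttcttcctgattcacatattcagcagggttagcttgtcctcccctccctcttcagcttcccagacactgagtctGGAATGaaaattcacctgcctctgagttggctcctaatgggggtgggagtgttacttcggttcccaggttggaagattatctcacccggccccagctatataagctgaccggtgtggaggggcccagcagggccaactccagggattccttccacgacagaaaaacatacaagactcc
AMOTL2 (chr3:134374398-134374697, minus strand): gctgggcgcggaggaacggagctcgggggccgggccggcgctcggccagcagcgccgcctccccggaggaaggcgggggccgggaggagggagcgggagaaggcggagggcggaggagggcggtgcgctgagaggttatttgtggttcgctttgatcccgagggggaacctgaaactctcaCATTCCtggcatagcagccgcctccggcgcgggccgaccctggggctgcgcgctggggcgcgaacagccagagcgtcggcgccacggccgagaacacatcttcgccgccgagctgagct

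The CTGF promoter held 3 TEAD core matches, with their first bases at -169, -104 and -95 from the start. ANKRD1 held 2, at -220 and -128. AMOTL2 held 1, at -69, in the window shown, and none in the window of its other start. YAP1 held 1, at -162, while WWC1 and both windows of WWTR1 held none. The core was present in 14.0% of all 35116 promoter windows of this length. The pattern TGANTCA, a looser form of the AP-1 motif with any base at N, was present in 7.71% of windows. Among the 6 genes it was present in ANKRD1 alone, at -195, where it reads TGATTCA and does not overlap a TEAD core match. No CArG box, the motif of serum response factor, was present in any of the 6, against 1.29% of all windows. A match is a string of letters and does not show that a factor binds there.

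**Figure D1:**
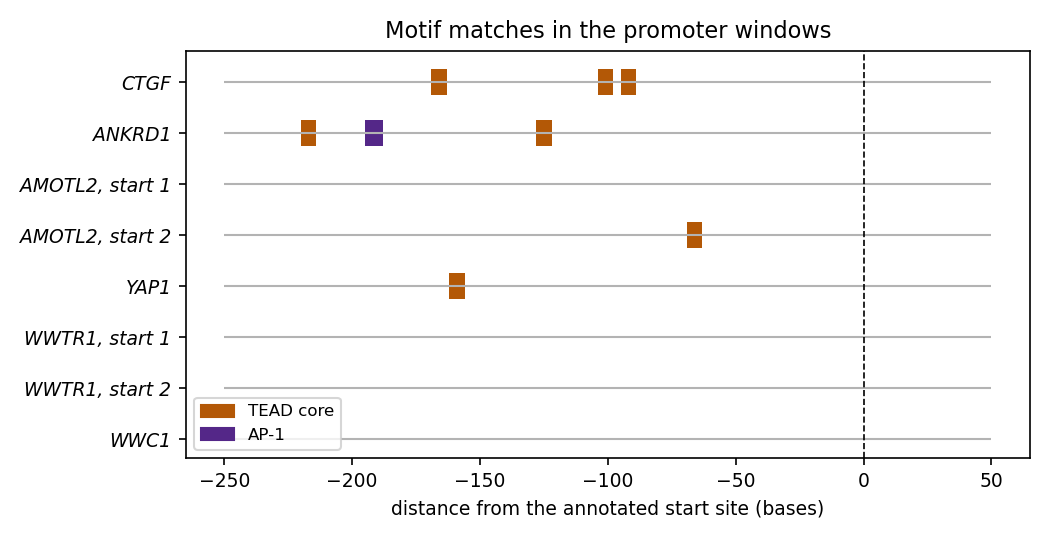
TEAD core matches (orange, 6 bases) and matches to the looser AP-1 pattern TGANTCA (purple, labelled AP-1, 7 bases) in promoter windows of 6 genes. Windows run from 250 bases before to 50 after the annotated start, and AMOTL2 and WWTR1 have 2 annotated starts each. CTGF has 3 TEAD core matches within 169 bases of its start, and WWTR1 and WWC1 have none.

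Library totals ran from 13712263 to 40742857 counts, and 14598 symbols passed the filter on low counts. Over all of them edgeR called 626, of which 442 (70.6%) were higher and 184 lower in high uptake. After a GC content correction within each library the split was 1500 higher (56.9%) to 1137 lower. Both libraries numbered 2 stood apart on the second principal component (scores of 18.6 in high uptake and 23.8 in low uptake, against -23.1 to -4.99 in the remaining 4). Of the glioblastoma markers VIM was abundant (mean 10534 CPM in high uptake, 10268 CPM in low uptake), and so was CD44 (1954 and 1753 CPM). The astroglial and neural stem markers were uneven. NES (19.9 CPM in high uptake, 22.5 CPM in low uptake), SOX9 (10.0 and 8.03 CPM) and OLIG2 (1.01 and 1.39 CPM) were present. GFAP, S100B and SOX2 stayed under 1 CPM on average in both groups. CPM here are counts relative to TMM-scaled library size.

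Among the 10 genes, WISP1 was 3.40-fold higher in high than in low uptake, and ANKRD1 and WWC1 were lower in high uptake (log2 fold changes of -1.26 and -0.67). CTGF and CYR61, the genes most often read as YAP output, overlapped between the groups. Of the 9 genes that passed the low-count filter, 2 were past an adjusted p of 0.05 (1 higher, 1 lower), where 4.29% of all tested genes were past it, 3.03% higher and 1.26% lower. In 5 of the 9, high-uptake values did not overlap low-uptake values, 2 above and 3 below. Over all tested genes the groups did not overlap in 24.4%, 13.0% above and 11.4% below. Since the genes were chosen with this contrast known, nothing is read from these counts. The median log2 fold change was -0.03 over the 9 genes and -0.00 over all tested genes.

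WISP1, which encodes a matricellular protein that acts on osteoblasts and fibroblasts, had 229, 53 and 128 counts in high replicates 2, 3 and 4, against 54, 33 and 22 counts in low replicates 2, 3 and 4. Scaled for depth these were 5.67, 3.93 and 3.84 CPM in high uptake, against 1.40, 1.50 and 1.08 CPM in low uptake. Every high-uptake library lay above every low-uptake library. The mean of the high-uptake libraries was 4.48 ± 1.03 CPM and that of the low-uptake libraries 1.32 ± 0.221 CPM (SD, n = 3 each), a 3.40-fold difference (log2 1.77, standard error SE 0.216). This log2 fold change ranked 13 among the 14598 tested genes. Between libraries of equal number the log2 difference was 1.97, 1.35 and 1.77 for numbers 2, 3 and 4, so high uptake was above low uptake at each number.

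CTGF, a secreted protein that promotes matrix production, stood at 116, 127 and 139 CPM in high replicates 2, 3 and 4, against 69.7, 115 and 126 CPM in low replicates 2, 3 and 4. The groups overlapped, and low replicate 2 lay far below the other 5 libraries. The log2 fold change was 0.30 (SE 0.181), and it was 0.08 (SE 0.0983) without low replicate 2. At numbers 2, 3 and 4 the difference was 0.73, 0.15 and 0.14. CYR61, which supports adhesion and migration through integrins, stood at 129, 119 and 118 CPM in high uptake against 127, 130 and 118 CPM in low uptake. Its groups overlapped almost fully, with a log2 fold change of -0.03 (SE 0.0795). CYR61 was therefore level where WISP1 was high.

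NOV, a CCN protein often described as counteracting the matrix effects of CTGF, stood at 62.9, 54.8 and 66.4 CPM in high uptake against 80.2, 70.5 and 72.0 CPM in low uptake. All 3 high-uptake values lay below the low-uptake values, by a narrow margin between the nearest libraries (66.4 and 70.5 CPM). The log2 fold change was -0.27 (SE 0.0955). WISP2, the CCN protein that lacks the C-terminal domain of the others, had 0, 1 and 7 counts in high uptake against 2, 2 and 3 counts in low uptake and was not tested. WISP3 (CCN6), the remaining gene of the family, had 6, 1 and 0 counts in high uptake against 6, 0 and 2 counts in low uptake. At these depths a difference in WISP2 or WISP3 could not be detected.

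ANKRD1, a nuclear ankyrin-repeat protein first known from heart muscle, was scarce. It had 10, 7 and 11 counts in high replicates 2, 3 and 4, against 21, 19 and 22 counts in low replicates 2, 3 and 4. Scaled for depth these were 0.248, 0.520 and 0.330 CPM in high uptake, against 0.543, 0.864 and 1.08 CPM in low uptake. The groups did not overlap, though high replicate 3 and low replicate 2 were close. The log2 fold change was -1.26 (SE 0.400), with the widest error of the 9 tested genes. AMOTL2, an angiomotin-family protein of cell junctions, stood at 75.2, 105 and 101 CPM in high uptake against 101, 130 and 126 CPM in low uptake. Both libraries numbered 2 were the lowest of their group, and the groups overlapped at high replicate 3 and low replicate 2. Its log2 fold change was -0.35 (SE 0.132), with differences of -0.43, -0.30 and -0.32 at numbers 2, 3 and 4. Its paralogs AMOT and AMOTL1, chosen after their values were seen, had log2 fold changes of -0.23 (SE 0.165, adjusted p = 0.509) and 0.13 (SE 0.0874, adjusted p = 0.481) in edgeR.

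WWC1, the scaffold that brings LATS kinases together with their activators, had 3.86, 4.68 and 5.16 CPM in high replicates 2, 3 and 4, against 6.86, 8.14 and 6.75 CPM in low replicates 2, 3 and 4. High-uptake values all lay below low-uptake values. The log2 fold change was -0.67 (SE 0.150), and the difference was -0.82, -0.79 and -0.38 at numbers 2, 3 and 4. Leaving out high replicate 2 gave a log2 fold change of -0.54, leaving out low replicate 3 gave -0.58 and leaving out low replicate 4 gave -0.71, and in these fits WWC1 was not among the genes past the threshold. Its paralogs WWC2 (log2 -0.19, SE 0.0825, adjusted p = 0.249) and WWC3 (log2 0.08, SE 0.103, adjusted p = 0.727), also chosen after their values were seen, did not pass in edgeR, though WWC2 did after the GC content correction (adjusted p = 0.0285).

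YAP1 stood at 96.8, 75.7 and 83.1 CPM in high uptake against 83.1, 73.1 and 76.5 CPM in low uptake, and the groups overlapped (log2 0.14, SE 0.101). WWTR1, which encodes TAZ, stood at 121, 107 and 107 CPM in high uptake against 94.9, 87.8 and 88.7 CPM in low uptake. Its groups did not overlap, and the difference was nearly the same at numbers 2, 3 and 4 (0.35, 0.29 and 0.28). The log2 fold change was 0.31 (SE 0.0833), a 1.24-fold difference. Exons of the antisense gene WWTR1-AS1 share 795 bases with WWTR1 in GENCODE 29. The library kit keeps strand, per the labels, but the counting's strand setting is not known here, so reads there cannot be assigned. WWTR1-AS1 itself had 0.546 ± 0.111 CPM in high-uptake libraries and 0.562 ± 0.180 CPM in low-uptake ones (SD, n = 3 each). Smaller opposite-strand overlaps were annotated for YAP1 (628 bases, AP000942.2) and CTGF (195 bases, AL133346.1). AMOTL2 shared 187 bases with RPL39P5 on the same strand. Unlike WWTR1-AS1, none of these overlapping genes was among the counted symbols. With the GC trend removed, 6 of the 9 tested genes of the set passed, where 18.1% of all tested genes passed in that fit. Nothing is read from that count either.

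**Figure D2:**
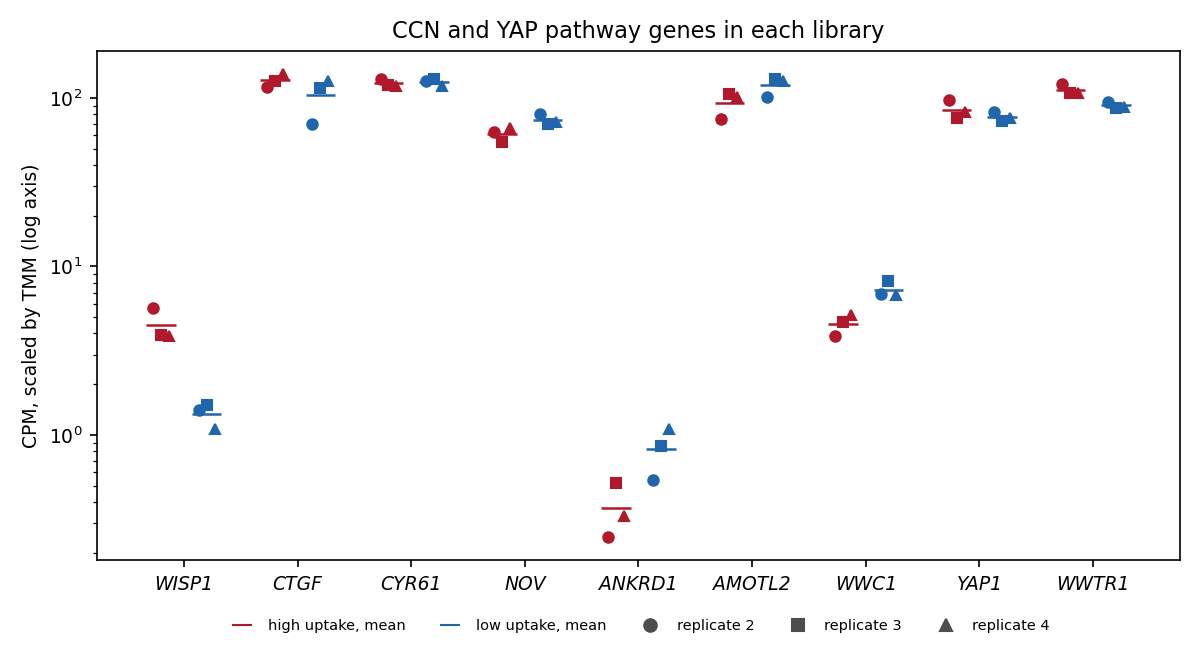
CPM scaled by TMM (log axis) of the 9 tested genes in each library, with high uptake in red left of low uptake in blue; symbols give the replicate number and bars the mean of 3 libraries. WISP1 lies at 3.84 to 5.67 CPM in high-uptake libraries and at 1.08 to 1.50 CPM in low-uptake ones, while CYR61 lies between 118 and 130 CPM in all 6 libraries.

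**Figure D3:**
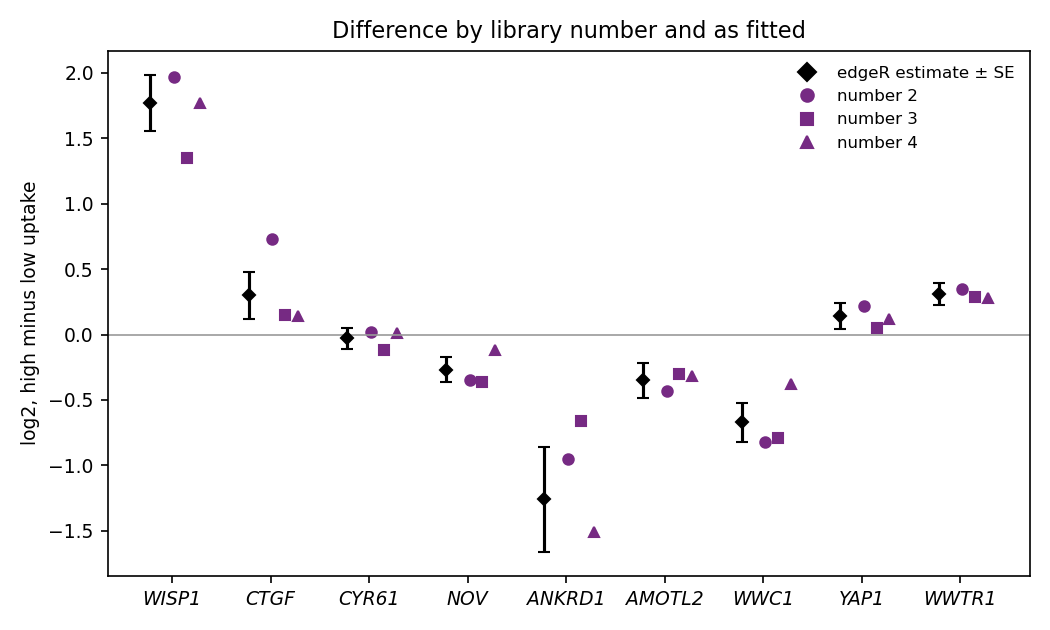
Log2 difference, high minus low uptake, of the 9 tested genes: edgeR's estimate with its standard error (black) and the difference in log2 CPM between libraries of equal number (purple). WISP1 lies above 0 and WWC1, ANKRD1, AMOTL2 and NOV below 0 at each number, and CTGF at number 2 (0.73) lies apart from its other values (0.15 and 0.14).

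Levels were compared between genes on the authors' TPM, which divide by gene length. CTGF (134 ± 13.4 TPM in high uptake and 106 ± 29.4 TPM in low uptake) and CYR61 (131 ± 6.61 TPM in high uptake, 131 ± 7.32 TPM in low uptake) stood highest and overlapped each other in both groups. NOV followed at 58.1 ± 6.42 TPM in high uptake and 68.5 ± 5.86 TPM in low uptake. WWTR1 (51.2 ± 3.77 TPM in high uptake, 40.5 ± 2.35 TPM in low uptake), AMOTL2 (44.0 ± 7.60 TPM in high uptake, 54.5 ± 6.36 TPM in low uptake) and YAP1 (36.7 ± 4.81 TPM in high uptake, 32.7 ± 2.62 TPM in low uptake) came next. In high uptake WWTR1 overlapped both NOV and AMOTL2, and AMOTL2 overlapped YAP1. In low uptake the order was NOV, AMOTL2, WWTR1 and YAP1 with no overlap between these neighbours, while NOV overlapped CTGF, whose low replicate 2 had 72.6 TPM. Far below, WISP1 stood at 2.12 ± 0.487 TPM in high uptake and 0.613 ± 0.103 TPM in low uptake, and WWC1 at 1.67 ± 0.251 TPM in high uptake and 2.58 ± 0.252 TPM in low uptake (SD, n = 3 each throughout). WISP1 overlapped WWC1 in high uptake and lay wholly below it in low uptake, where it overlapped ANKRD1. ANKRD1 itself had 0.454 ± 0.168 TPM in high uptake and 1.00 ± 0.316 TPM in low uptake. Even where it was highest, WISP1 was thus a low-level transcript beside CTGF and CYR61.

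The rest of the pathway was described from lists of genes that are no members of the set above. Over all tested genes 4.29% were past the threshold, 3.03% higher and 1.26% lower, and 18.1% were past it after the GC content correction. The lists were chosen with earlier results of these data known, so nothing is read from their counts. None of the 6 tested TEAD and VGLL genes passed edgeR's test on the counts as deposited, but 4 did after the GC content correction: TEAD1 (adjusted p = 0.00279), TEAD4 (0.0110), VGLL3 (0.00144) and VGLL4 (0.00869). Without that correction, 4 had an unadjusted p under 0.05, DESeq2 called 1 and limma none. TEAD1, a DNA-binding partner of YAP and TAZ, stood at 224, 183 and 208 CPM in high uptake against 186, 166 and 171 CPM in low uptake, which overlapped (log2 0.23, SE 0.0897, adjusted p = 0.190). TEAD4 stood at 26.3, 29.8 and 27.0 CPM in high uptake against 31.9, 33.5 and 34.3 CPM in low uptake, without overlap (log2 -0.27, SE 0.0899, adjusted p = 0.132). TEAD2 and TEAD3 had log2 fold changes of 0.17 and 0.02 (adjusted p = 0.782 and 0.960). VGLL3, a TEAD-binding cofactor, differed by 0.49 on the log2 scale (SE 0.156, adjusted p = 0.111), and VGLL4, which competes with YAP for TEAD, by 0.21 (SE 0.0738, adjusted p = 0.150). VGLL3 was the gene that passed in DESeq2 (adjusted p = 0.0280), and without the GC correction edgeR called it when high replicate 3 (0.0136), low replicate 2 (0.0259) or both libraries numbered 2 (0.00632) were left out. VGLL1 was at 0 counts in all 6 libraries and VGLL2 was too low to test.

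Of 31 other Hippo kinases, scaffolds and upstream regulators, 1 rose and none fell, where 3.03% of all tested genes rose and 1.26% fell. The list median was 0.05 on the log2 scale. PTPN14, a phosphatase that binds YAP and is also one of its targets, rose to 152, 122 and 121 CPM in high replicates 2, 3 and 4, against 100, 90.1 and 87.9 CPM in low replicates 2, 3 and 4 (log2 0.51, SE 0.102, adjusted p = 0.0195). LATS1, LATS2 and NF2, the tumour suppressor upstream of LATS, had log2 fold changes of 0.11, -0.08 and 0.22 (adjusted p = 0.653, 0.789 and 0.269), none past the threshold in edgeR. After the GC content correction NF2 passed (adjusted p = 0.0318), and the list gave 5 calls, where 18.1% of all tested genes passed. LATS2 had a log2 fold change of 0.04 without high replicate 2. PTPN14 no longer passed when high replicate 2 (adjusted p = 0.0536), low replicate 3 (0.0723) or low replicate 4 (0.0999) was left out, or after a gene length correction (0.0510).

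Among other genes of a YAP/TAZ/TEAD target list, the count was 4 higher, 0 lower and 13 not past the threshold (list median 0.10 on the log2 scale). Over all tested genes 3.03% were higher and 1.26% lower. IGFBP3, a binding protein of insulin-like growth factors, had 127, 126 and 128 CPM in high uptake against 65.9, 81.5 and 92.8 CPM in low uptake (log2 0.67, SE 0.111, adjusted p = 0.00761). The others were PTPN14, CCDC80, a secreted matrix protein (log2 0.36, adjusted p = 0.0362), and DOCK5, an activator of Rac (log2 0.35, adjusted p = 0.0263); CCDC80 and DOCK5 were named after their values were seen. The IGFBP3 call held in each of the 18 alternatives run. The list gave 1 call with the length trend removed and without high replicate 2, low replicate 3 or low replicate 4, and 2 without high replicate 4.

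Lists for other routes known to switch on CCN genes gave mixed counts, beside 3.03% higher and 1.26% lower over all tested genes. Of 20 MRTF/SRF targets, TPM1, a tropomyosin, rose (high-uptake mean 326 ± 5.73 CPM, low-uptake mean 262 ± 17.5 CPM, SD, n = 3 each; edgeR adjusted p = 0.0369) and FHL1, a LIM-domain protein, fell (log2 -0.58, adjusted p = 0.0392). Of 9 tested Wnt/beta-catenin targets, TNFRSF19 rose (log2 0.71, SE 0.111, adjusted p = 0.00544) and SP5, a transcription factor, fell (log2 -1.03, SE 0.256, adjusted p = 0.0457). Of 13 TGF-beta targets and components, 5 rose and none fell (3.03% and 1.26% of all tested genes), and the list median was 0.30. TGFBI, a secreted adhesion protein, had 2652, 2889 and 2566 CPM in high uptake against 1341, 1681 and 1728 CPM in low uptake (log2 0.77, SE 0.0971, adjusted p = 0.00191). COL1A1, a chain of type I collagen, rose by 0.98 (SE 0.124, adjusted p = 0.00197), and the receptor TGFBR2 by 0.57, SMAD6 by 0.55 and SMAD7 by 0.33, the last 3 named after their values were seen. Of 11 tested immediate early genes, EGR2 rose by 1.04 (SE 0.117, adjusted p = 0.000995) and FOS by 0.56 (SE 0.0872, adjusted p = 0.00501), and none fell.

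Of 13 tested binding partners of CCN proteins, 4 rose and none fell, and the list median was 0.22. Over all tested genes 3.03% rose and 1.26% fell. FN1, the matrix protein fibronectin, rose by 1.82 (SE 0.0883, adjusted p = 2.68e-06) and LRP1, an endocytic receptor that binds CTGF, by 0.63 (SE 0.0964, adjusted p = 0.00470). LRP1 stood at 1242, 1436 and 1107 CPM in high uptake against 767, 875 and 804 CPM in low uptake, with no overlap. The integrin subunits ITGB3 and ITGB1 rose by 0.45 and 0.36 (adjusted p = 0.00987 and 0.0464), both named after their values were seen. After the gene length correction the list gave 2 calls, without LRP1 (adjusted p = 0.0525) and ITGB1 (0.0604). After the GC content correction it gave 10, where 18.1% of all tested genes passed.

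Several of these calls were lost when 1 library was left out, which also leaves fewer libraries to test. In these fits the log2 fold change ran from 0.31 to 0.36 for DOCK5 (0.35 with all libraries). For SP5 it ran from -1.21 to -0.94 (-1.03 with all), and for SMAD6 from 0.40 to 0.58 (0.55 with all). Why the calls were lost was not tested. Adjusted p rose past the threshold for CCDC80 without any library but high replicate 3 (0.0723 to 0.150), for DOCK5 and ITGB1 without high replicates 2 or 4 or low replicates 3 or 4 (0.0844 to 0.125 and 0.119 to 0.175), and for ITGB3 without low replicate 4 (0.0659). It did so for TPM1 and SMAD7 without any library but high replicate 3 (0.0881 to 0.122 and 0.0554 to 0.144), for SMAD6 without high replicates 2 or 4 or low replicates 2 or 3 (0.0730 to 0.133), for FHL1 without high replicate 2 or low replicates 2 or 4 (0.0512 to 0.151), and for SP5 without any 1 of the 6 (0.0583 to 0.170). Other processing choices also ended calls. SP5 did not pass in DESeq2 (0.0778) or after the length correction (0.0584), and after the length correction neither CCDC80 nor DOCK5 passed (0.0645 each). SMAD6 did not pass under a filter of 50 counts, the length correction, library totals alone or upper quartile scaling (0.0534 to 0.0572). With library totals alone and with upper quartile scaling, TPM1 (0.0507 and 0.0501) and ITGB1 (0.0709 and 0.0521) did not pass either, and without both libraries numbered 2 neither TPM1 (0.0837) nor CCDC80 (0.0871) did.

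**Figure D4:**
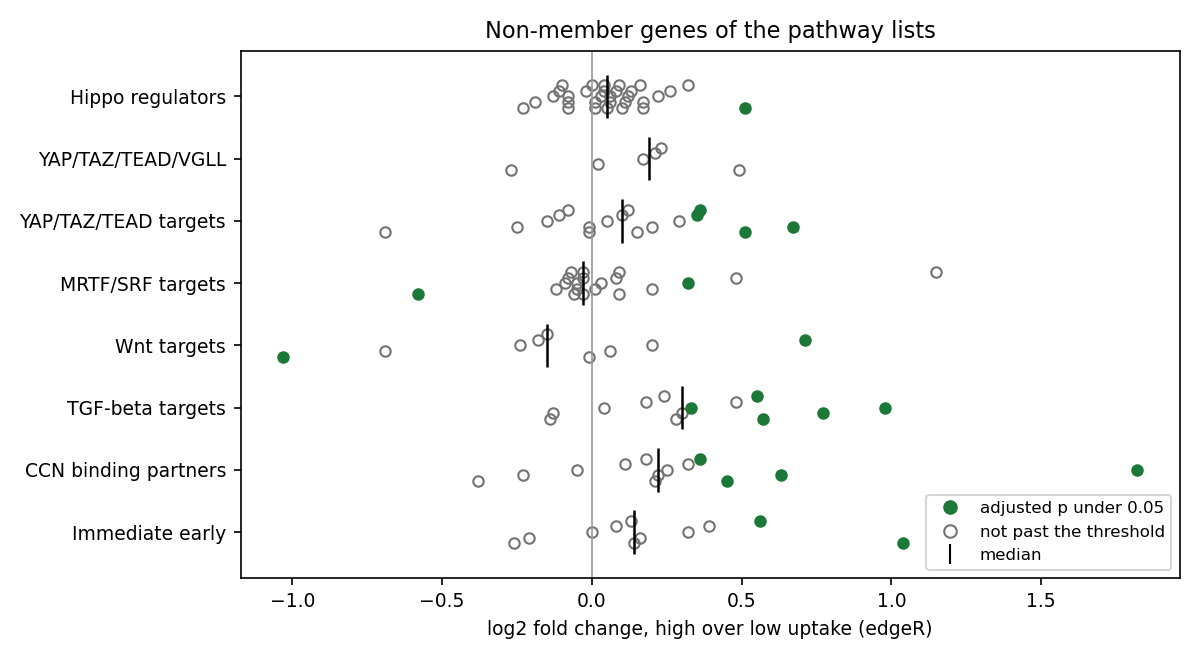
Log2 fold changes (edgeR, high over low uptake) of the tested genes in 8 pathway lists, leaving out the 10 genes themselves; filled circles passed an adjusted p of 0.05, open circles did not, and bars are list medians. CCN binding partners reach 1.82 (FN1), and no gene of the YAP, TAZ, TEAD and VGLL row is filled in this fit, without GC correction.

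Markers of fibroblasts and myofibroblasts moved with the groups as WISP1 did: 5 of 7 tested rose (COL1A1, COL1A2, LUM, PDGFRB and FAP) and none fell. Over all tested genes 3.03% rose and 1.26% fell. The fibroblast list, too, was chosen with earlier results of these data known. ACTA2 (log2 0.48, edgeR adjusted p = 0.0584) and PDGFRA (log2 0.52, adjusted p = 0.113) did not pass. The 9 listed fibroblast genes summed to 1911 to 2333 CPM in high-uptake libraries and to 850 to 1073 CPM in low-uptake ones. Most of these sums came from the type I collagen chains COL1A2 (mean 1205 CPM in high uptake, 465 CPM in low uptake) and COL1A1 (819 and 416 CPM). The defining markers DCN and POSTN stayed under 0.5 CPM on average in both groups. Of the immune, epithelial and endothelial markers, 9 were tested and none passed in edgeR, DESeq2 or limma. Immune markers summed to 275 to 302 CPM in high-uptake libraries and to 252 to 304 CPM in low-uptake ones. Most of that was CD68 (mean 267 CPM in high uptake, 254 CPM in low uptake), followed by CSF1R (16.9 and 19.8 CPM). Epithelial markers summed to 2.05 to 3.12 CPM in high-uptake libraries and to 2.10 to 2.68 CPM in low-uptake ones. Endothelial markers summed to 8.89 to 9.57 CPM in high-uptake and 9.41 to 9.93 CPM in low-uptake libraries. In these sorted populations, more cells with a transcript and more of it in each cell cannot be told apart, and the part of the fibroblast-type genes in the WISP1 result was not tested.

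For each of 4 genes the most alike over the 6 libraries were found among genes of at least 1 CPM, by Pearson correlation of log2 CPM, as a description. WISP1 was closest to MTHFD1, SMARCA2 and MAP4K4 (r = 0.999, 0.998 and 0.998), genes whose own log2 fold changes were only 0.12, 0.25 and 0.09. CTGF was closest to FBLIM1, FAM43A and IGFBP1 (0.999, 0.991 and 0.989), and CYR61 to PCTP, MEGF10 and NPIPA5 (0.978, 0.975 and 0.971). ANKRD1 was closest to JUN and FUK (0.997 and 0.996). With 6 points that share their library and over 13178 genes compared, such values say little about any pair, and no gene named here was among the closest to more than 1 of the 4.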

How the data were processed

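RNA-seq of U87 cells was analysed in 6 libraries, 3 of high and 3 of low uptake. Reads were handled with fastp, STAR and featureCounts on genome build hg19, per the submitters' processing notes (versions, annotation and strand setting not given in the sources used here). The deposited files held read counts per gene symbol, beside the authors' FPKM and TPM columns, named in the file headers. The deposited counts were tested, TPM gave levels between genes, and FPKM gave only the gene-model length.

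Groups came from the sample titles. Genes passed edgeR's filterByExpr (minimum count 10, minimum total 15), libraries were scaled by TMM, and high was tested against low uptake over all genes with edgeR 4.0.16's quasi-likelihood test (robust, two-sided, Benjamini-Hochberg, threshold 0.05). An SE is the log2 fold change divided by the square root of F. DESeq2 1.42.0, limma 3.58.1, other scalings, filters, left-out libraries, a replicate block, and length and GC trends were alternatives. The test was also run on counts drawn with known changes at a fixed dispersion. These had no GC trend and no deviation shared by libraries of equal number, so that run does not cover such features. GC content came from the longest GENCODE 29 transcript of 96.7% of tested genes. The set of genes, the lists and the tests were chosen with earlier results of these data known. Besides the 10 genes, the text names the TEAD and VGLL genes, LATS1, LATS2, NF2, WISP3, and from each other list up to 2 genes that passed, by smallest p (where none passed, 1), and the 3 genes most alike to each of 4 genes, of which 1 is not reported here; others are said to be chosen after their values were seen. The low-count filter was passed by 9 of the 10 genes.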

Additional observations from a re-analysis of the deposited data

How the results depend on the processing

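Under 18 alternatives (17 for ANKRD1) the log2 fold change stayed between 1.53 and 1.89 for WISP1, between -0.78 and -0.54 for WWC1, -1.55 and -1.01 for ANKRD1, -0.46 and -0.21 for AMOTL2, -0.33 and -0.21 for NOV, 0.24 and 0.34 for WWTR1, 0.08 and 0.47 for CTGF, 0.03 and 0.20 for YAP1, and -0.07 and 0.00 for CYR61. The count over all genes was 626 as tested, 2637 with the GC trend removed, 3176 with the replicate number as a block (replicate block) and 4079 with both, and 232 to 738 without a single library. It was lowest without low replicate 4 (232) or low replicate 3 (276). These libraries were also the nearest pair within a group, by chi-square of their counts per degree of freedom (2.35, against 11.5 to 19.6 for the other pairs). Why they lay so near, and whether this bears on the calls, was not tested. Deviations from the group mean correlated between libraries of equal number at r = 0.452, 0.304 and 0.0873 for 2, 3 and 4. Low replicate 4 was closer to high replicate 3 (0.216) than to high replicate 4. Within a group the deviations depend on each other, so these values cannot decide whether the numbers mark pairs. No label says that they do, and the main test leaves the number out. With the replicate block 6 of the 9 tested genes of the set were past the threshold. In that fit 3176 of all 14598 tested genes were past it, and nothing is read from the 6. TEAD1 (adjusted p = 0.00193), TEAD4 (0.00686), VGLL3 (5.25e-06), VGLL4 (0.00769), NF2 (0.0168) and WWC2 (0.0322) passed there too. So did 10 of the 13 tested CCN binding partners, against 4 without the block. Other YAP/TAZ/TEAD targets past the threshold numbered 4 as tested, 9 with the replicate block, 10 with the block and GC trend removed, 1 with the length trend removed, and 1 to 4 without a single library. TEAD3 turned to -0.05 with both libraries numbered 2 left out, -0.00 with library totals alone, -0.07 without high replicate 3 and -0.12 without low replicate 2, LATS2 to 0.04 without high replicate 2, and WWC3 to -0.02 without high replicate 3; without a single library these ran from -0.12 to 0.12, -0.14 to 0.04 and -0.02 to 0.14, and none passed. The causes were not tested. Depth limits WISP2 and WISP3, which had at most 7 counts in any library.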

Other observations

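The authors' deposited table of gene symbols, which carries no values or direction, lists 2305 symbols. They are 8.98% of all 25680 counted, of which only 14598 passed the low-count filter used here, so that share is a low yardstick. The table names 6 of the 10 genes, WISP1, NOV, ANKRD1, AMOTL2, WWC1 and WWTR1, and leaves out CTGF, CYR61, WISP2 and YAP1. Since the 10 were chosen with this contrast known, nothing is read from the 6.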
